A study of Mus musculus with 24 samples.

Results

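The proteasome subunit genes of mouse dorsal root ganglia (DRG) are described here as a group of 47 genes among the 20782 genes of the table. They were chosen by symbol: every gene named Psma, Psmb, Psmc, Psmd, Psme, Psmf or Psmg followed by a number, without the interferon-inducible subunits Psmb8 and Psmb9, the unrelated Psmc3ip and pseudogene symbols. RNA was sequenced from lumbar DRG, the clusters of sensory neurons beside the spinal cord, in 24 libraries of 8 groups with 3 libraries each. Cultured adult neurons had been dissociated from lumbar ganglia, plated on laminin and collected 6, 12, 24 or 36 h after plating. Adult L4 and L5 ganglia came from mice with a peripheral lesion, called conditioned in the design text, and from sham-operated mice. Embryonic lumbar ganglia came from E17.5 and E12.5. No genotype or transgene is named for any group, and strain, adult age and the interval between lesion and collection are not given in the labels. Cell sorting stands in the extraction text of every library, with no word on whether freshly dissected ganglia were sorted too. The series title concerns a calcium channel subunit and axon regeneration, and the labels give no aim for the proteasome genes. The labels do not tie libraries to separate animals, so the p-values reflect the spread between these libraries, which may be technical.

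The proteasome is the large protease that degrades proteins tagged with ubiquitin. Its 20S core is a barrel of alpha and beta subunits, with the cutting sites inside the beta rings. The 19S particle caps the barrel and is made of a base with ATPases that unfold the substrate and a lid that takes off the ubiquitin chain. Other caps, the activators, open the barrel without ubiquitin, and dedicated chaperones assemble both particles. In neurons, protein turnover by this machine is a known part of axon growth and synapse maintenance.

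Among the 47 genes, 7 encode the alpha ring (Psma1 to Psma7) and 7 the constitutive beta ring (Psmb1 to Psmb7). Psmb10, the immunoproteasome form of the Psmb7 site, Psma8, a testis form, and Psmb11, a thymus form, were kept apart. The 19S particle was covered by 6 base ATPases (Psmc1 to Psmc6), 3 further base genes (Psmd1, Psmd2 and the ubiquitin receptor Psmd4) and 8 lid genes (Psmd3, Psmd6, Psmd7, Psmd8, Psmd11, Psmd12, Psmd13 and Psmd14). Psmd5, Psmd9 and Psmd10 are 19S assembly chaperones, and Psmg1 to Psmg4 are 20S assembly chaperones. Psme1, Psme2, Psme3 and Psme4 are activators, Psme2b is a retrogene copy of Psme2, and Psmf1 is an inhibitor of the core.

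Promoters, from 250 bases before to 50 bases after the gene start, are shown for 4 members called in lesion against sham ganglia. They were picked because they differ in the antioxidant response and short cAMP response motifs given below. Psme4 and Psmd11 were higher after lesion, calls that were lost without 5 and 4 of the 6 libraries, and Psmb5 and Psma5 were lower, calls that passed without each library. The sequences are from RefSeq on GRCm38.p6, read 5′ to 3′ on the strand of the gene. Capitals mark the core of the antioxidant response element (TGACNNNGC, bound by the Nfe2l1 and Nfe2l2 factors) and the short cAMP response motif (TGACG), searched on both strands.
Psme4: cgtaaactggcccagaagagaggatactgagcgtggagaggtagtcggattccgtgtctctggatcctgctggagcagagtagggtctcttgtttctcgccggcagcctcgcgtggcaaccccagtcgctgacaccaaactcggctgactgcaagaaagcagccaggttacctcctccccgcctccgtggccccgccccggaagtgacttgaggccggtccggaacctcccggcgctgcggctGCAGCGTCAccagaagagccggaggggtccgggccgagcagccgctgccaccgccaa
Psmd11: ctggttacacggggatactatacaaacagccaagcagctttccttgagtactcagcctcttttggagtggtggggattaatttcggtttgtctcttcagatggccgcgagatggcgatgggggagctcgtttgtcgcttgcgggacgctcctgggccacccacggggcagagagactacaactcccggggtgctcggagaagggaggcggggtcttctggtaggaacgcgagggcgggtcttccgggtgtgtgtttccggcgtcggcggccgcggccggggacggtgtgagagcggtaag
Psmb5: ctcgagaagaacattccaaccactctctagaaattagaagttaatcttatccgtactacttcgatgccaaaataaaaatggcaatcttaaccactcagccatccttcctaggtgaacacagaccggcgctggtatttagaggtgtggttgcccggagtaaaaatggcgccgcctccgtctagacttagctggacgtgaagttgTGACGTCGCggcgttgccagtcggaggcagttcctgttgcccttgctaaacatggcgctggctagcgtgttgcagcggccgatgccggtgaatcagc
Psma5: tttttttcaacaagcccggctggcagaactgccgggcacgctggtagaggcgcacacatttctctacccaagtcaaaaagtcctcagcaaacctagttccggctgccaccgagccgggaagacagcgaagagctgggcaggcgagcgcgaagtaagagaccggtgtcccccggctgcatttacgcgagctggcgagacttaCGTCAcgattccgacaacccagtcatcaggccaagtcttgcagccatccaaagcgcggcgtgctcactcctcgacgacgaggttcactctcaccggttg
The Psme4 promoter lies at chr11:30771525-30771824 (+) and the Psmd11 promoter at chr11:80428365-80428664 (+). The Psmb5 promoter lies at chr14:54617946-54618245 (-) and the Psma5 promoter at chr3:108256676-108256975 (+). In the Psme4 and Psmb5 promoters 1 run of letters held both motifs, Psma5 held the short cAMP motif alone, and the Psmd11 window held neither. Promoters were listed for 39 of the 47 members, 42 promoters in all. A member counted as a match if any of its promoters matched, while the background counts single promoters. The antioxidant core was found in 15.4% of these 39 members (Psmb5, Psmb6, Psmc6, Psmd9, Psmd12 and Psme4), against 12.4% of all 32851 listed promoters. The short cAMP motif was found in 46.2% of the 39 members, against 20.8% of all promoters. Counted by promoter, 6 of 42 held the antioxidant core and 19 of 42 the short cAMP motif. The letters CCAAT were found in 33.3% and 37.4%, TATAAA in 7.69% and 13.6%, and GAAANNGAAA, a core of interferon response elements, in 12.8% and 3.44%. A match describes these letters in this window and is not evidence of a bound site.

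Psme2 and Psme2b are shown together because their reads could not be told apart with certainty. Psme2 lies at chr14:55587441-55591113 (-) with 11 exons in the transcript used, and Psme2b is a single-exon gene at chr11:48945354-48946190 (-), in GENCODE annotation of the same build. Their coding sequences are 717 bases each and differ at 5 bases (99.3% identity). The stretch from coding base 394 to 543 is given with the differing bases in capitals.
Psme2: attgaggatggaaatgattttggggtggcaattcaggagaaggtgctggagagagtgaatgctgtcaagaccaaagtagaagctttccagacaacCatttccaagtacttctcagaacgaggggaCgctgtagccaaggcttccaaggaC
Psme2b: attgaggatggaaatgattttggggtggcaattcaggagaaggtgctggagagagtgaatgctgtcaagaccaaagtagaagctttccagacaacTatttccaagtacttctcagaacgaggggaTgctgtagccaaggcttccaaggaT
Of all 50-base windows of the Psme2 transcript, 59.3% were also present in Psme2b. Psme2b had the highest level per kilobase of the 47 genes, while Psme2 held only 0 to 2.12% of the reads of the pair in a library. How the authors' counting treated reads that fit both genes is not given in the sources used here, so all values of both genes are uncertain.

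The values are read counts that the authors had divided by 1 factor per library, called normalized read counts below. Recovered depth, in units of 1000000 reads, was 3.10 to 25.7 per library, and the 47 genes took 0.157 to 0.261% of them. Counting error is largest in the shallowest libraries, which were E17.5 replicates 2 (3.10) and 3 (4.61), culture 6 h replicate 3 (3.65), 12 h replicate 1 (3.13) and 24 h replicate 1 (4.57). All alpha ring, beta ring and 19S genes had at least 43 reads in every library. The assembly chaperones Psmg1 and Psmg4 and the activator Psme1 had as few as 8 to 10 reads in the poorest library. Psmb10 had as few as 11, and the values of all these genes are less precise. Psma8 and Psmb11 had at most 12 and 6 reads in any library and stayed below the filter for testing in every fit. The filter asked for a value of at least 10 in at least 3 libraries of a fit, and Psme2 passed it only in the culture and all-library fits. In the bulk RNA used here, fewer cells of a type and less RNA per cell cannot be told apart for any of the genes.

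Compared per kilobase of exon, as the mean of the 8 group means, members of the same particle differed widely in level. Psme2b stood at 1250 normalized reads per kilobase and Psmb5, the subunit with the chymotrypsin-like cutting site, at 1112. Psmd7, a structural partner of the deubiquitinase in the lid, followed at 628, the ATPase Psmc5 at 480, the base scaffold Psmd2 at 467 and the nuclear activator Psme3 at 452. The alpha ring ranged from 33.4 (Psma3) to 372 (Psma6) and the beta ring from 103 (Psmb3) to 1112. The base ATPases ranged from 136 (Psmc2) to 480, and the lid from 45.7 (Psmd11) to 628. At the low end stood Psme1 at 24.0, Psme2 at 4.50, Psma8 at 1.61 and Psmb11 at 0.427. Exon lengths depend on the annotation, and using the longest transcript instead moved the lid range to 98.1 to 898. Some members share exon bases with a neighbour: Psmd9 with Gm26745 (25.5% of its exon bases, opposite strand), Psmb5 with the microRNA gene Mir686 (12.1%, same strand), Psmb7 with Nek6 (11.8%, opposite strand) and Psmd13 with Sirt3 (10.1%, opposite strand). Strand use in counting is not stated, so reads of these neighbours may be included.

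**Figure D1:**
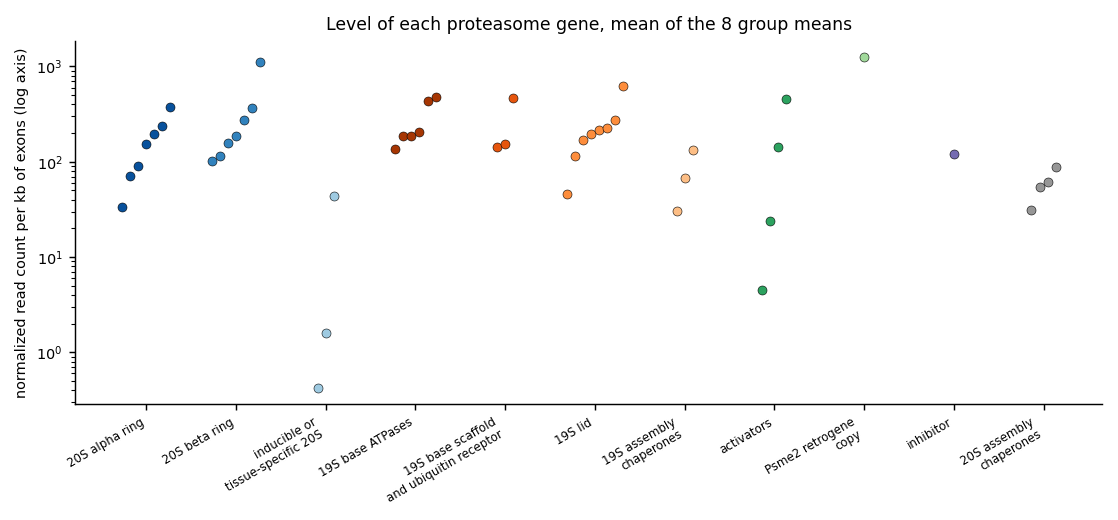
Level of each proteasome gene by role, as normalized read count per kilobase of exon on a log axis; 1 point is 1 gene, the mean of the 8 group means. Psme2b and Psmb5 stand above 1000, and Psma8 and Psmb11 lie below 2.

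Across the 8 group means the ratio of the highest to the lowest group had a median of 1.79 over the 44 members tested in every fit. It was under 1.5 for 8 of them and under 2 for 29. The lowest ratios were 1.26 for Psmb2 and 1.30 for Psmb7, the trypsin-like site. The ratio was 2.49 for Psmd3, 2.46 for Psme4 and 7.14 for Psmb10. Of these 44 members, 31 had their highest group mean in a culture group and 0 in lesion ganglia. The lowest mean lay in lesion ganglia for 16 and in embryonic ganglia for 19. Culture and embryonic ganglia supplied more of the 8 groups than lesion ganglia did, so these counts cannot be compared directly. The same count was not made over all genes, and whether members differ from other genes in this was not tested.

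After peripheral lesion 10 of the 14 constitutive core genes fell, while 2 lid genes and 2 activators rose. In lesion against sham ganglia 17 of 44 tested members fell and 4 rose, where 20.2% of all 14556 tested genes fell and 20.9% rose (limma, Benjamini-Hochberg adjusted p under 0.05). The share of members that rose was thus below the background. Of the 44, 39 had a negative change and the median log2 change was -0.26, against -0.01 over all genes tested. The groups did not overlap for 15 members that were lower and 3 that were higher in lesion libraries, where 26.3% of all genes were apart in each direction. The fall covered 5 of 7 alpha genes, 5 of 7 beta genes, 1 of 6 base ATPases, 2 of 3 chaperones of the 19S particle, 1 of 4 chaperones of the core, 2 of 8 lid genes and Psme2b. The rise covered 2 of 8 lid genes and 2 of 3 tested activators, and none of the 3 other base genes passed the test. The calls depend on how the spread is estimated: limma called 8 falls and 1 rise (Psmd3) without trend or robust, and 5 falls (Psma6, Psmb1, Psmb5, Psmd5 and Psmg2) and 0 rises in 1 fit over all 24 libraries. Calls over all genes dropped too. Without trend or robust 2457 of all genes fell and 2649 rose, and in the fit over 24 libraries 1034 of 15935 fell and 1581 rose.

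Psmb5 had 915, 778 and 1080 normalized reads in lesion libraries, against 1420, 1371 and 1201 in sham libraries. All lesion values lay below all sham values, and the log2 change was -0.53 ± 0.11 (SE, limma adjusted p = 0.00216). Psma6, an alpha ring subunit, had 276, 259 and 309 in lesion and 390, 455 and 365 in sham libraries, a log2 change of -0.52 ± 0.11 (limma adjusted p = 0.00179). Its groups did not overlap either. Psma2, also of the alpha ring, had 163, 157 and 254 in lesion and 288, 241 and 269 in sham libraries, with a log2 change of -0.50 ± 0.17 (limma adjusted p = 0.0287). Lesion replicate 3 lay within the sham range. Psma5 had 174, 190 and 204 in lesion and 249, 256 and 241 in sham libraries, all lower after lesion (log2 change -0.39, limma adjusted p = 0.00808).

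The largest fall was in Psmg2, a chaperone that pairs with Psmg1 to start the alpha ring, with 57.3, 53.4 and 76.3 in lesion and 103, 93.6 and 90.6 in sham libraries. The lesion values were all lower, and the log2 change was -0.63 ± 0.17 (limma adjusted p = 0.00865). Psmd5, a chaperone that holds base ATPases during 19S assembly, had 459, 509 and 515 in lesion and 743, 704 and 649 in sham libraries (log2 change -0.50 ± 0.08, limma adjusted p = 0.000441). These groups were also fully separate. The other genes that fell were Psma3, Psma4, Psmb1, Psmb2, Psmb4, Psmb7, Psmc4, Psmd6, Psmd10, Psmd12 and Psme2b, with log2 changes of -0.42 (Psmb1) to -0.26 (Psmd12).

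Psmd3, a lid scaffold, ran against the others with 858, 803 and 840 in lesion and 635, 616 and 613 in sham libraries. Every lesion library was above every sham library, and the log2 change was 0.42 ± 0.07 (limma adjusted p = 0.000472). Psmd11, a lid subunit known in human embryonic stem cells to raise proteasome assembly, had 286, 227 and 260 in lesion and 166, 232 and 185 in sham libraries (log2 change 0.41 ± 0.13, limma adjusted p = 0.0244). Its groups overlapped through lesion replicate 2 and sham replicate 2. Psme3, the nuclear activator, had 1436, 1399 and 1160 in lesion and 1079, 1060 and 1075 in sham libraries (log2 change 0.31 ± 0.08, limma adjusted p = 0.0101). Psme4, the large activator known for histone turnover, had 874, 805 and 823 in lesion and 736, 719 and 726 in sham libraries (log2 change 0.20 ± 0.07, limma adjusted p = 0.0423). Both activators were higher in all lesion libraries than in any sham library.

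The remaining catalytic, receptor and regulator genes did not pass the limma test. Psmb6, the caspase-like site, had a log2 change of -0.33 ± 0.13 (limma adjusted p = 0.066) and Psmb10 one of -0.47 ± 0.18 (limma adjusted p = 0.0552). Psmd14, the deubiquitinase of the lid, had -0.22 ± 0.09 (limma adjusted p = 0.0542), and the receptor Psmd4 had -0.13 ± 0.12 (limma adjusted p = 0.377). Psme1 had -0.18 ± 0.21 and the inhibitor Psmf1 0.03 ± 0.08, both with overlapping groups. A p above the threshold does not show that these genes were unaffected.

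**Figure D2:**
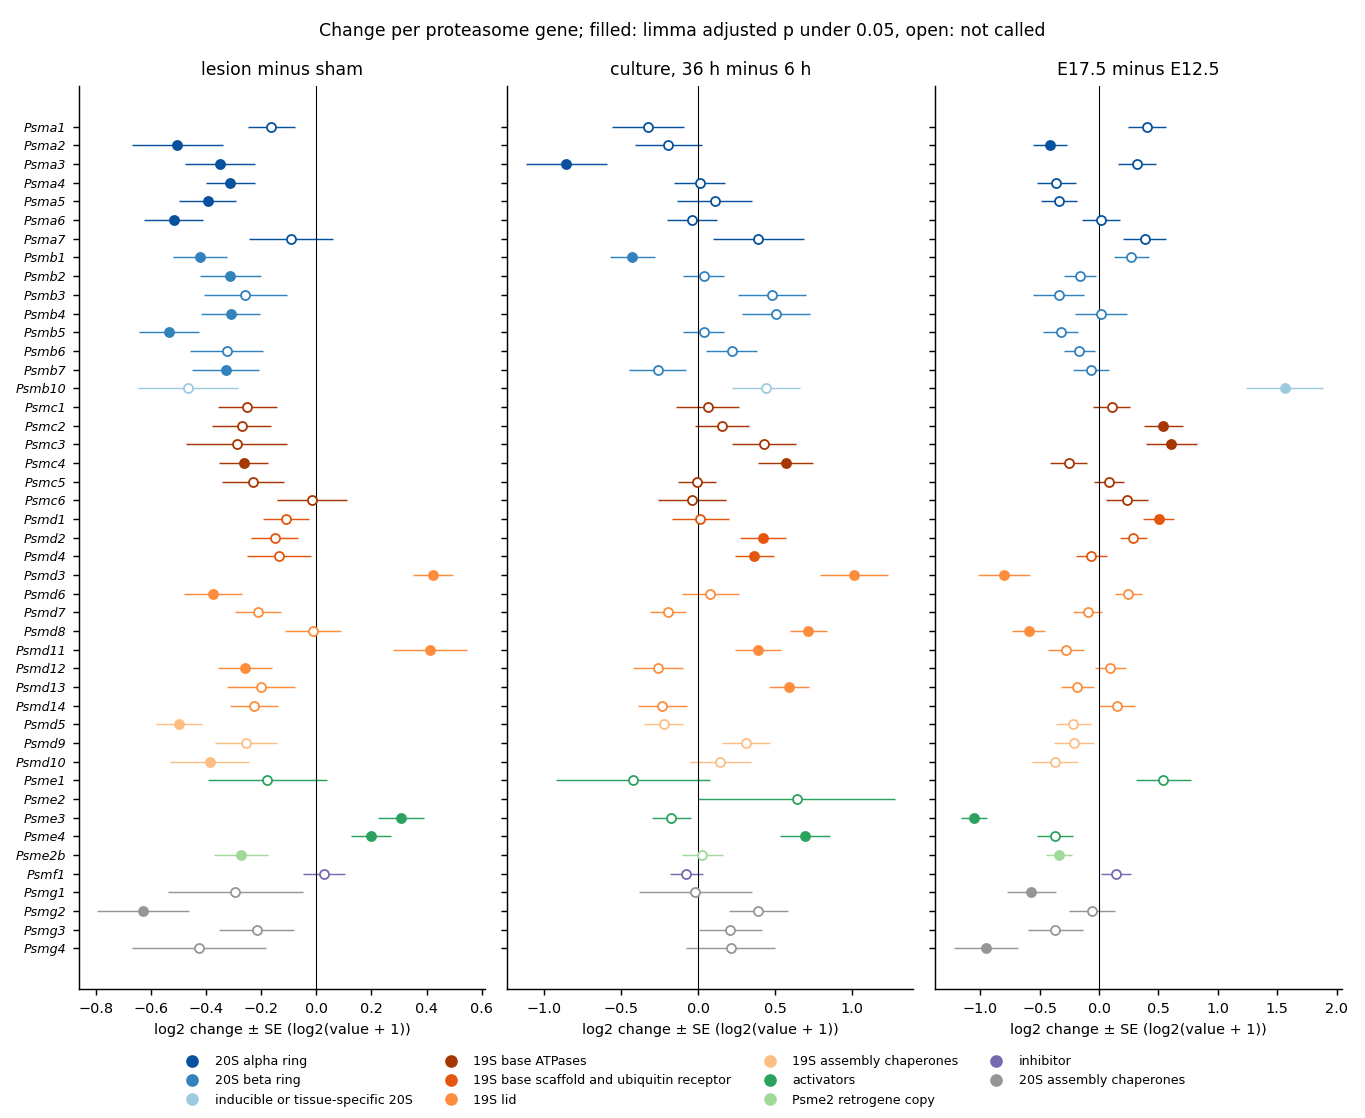
Log2 change ± SE of every tested member, in rows by role, for lesion minus sham, culture 36 h minus 6 h and E17.5 minus E12.5; filled points passed limma's adjusted threshold. In the lesion panel the core genes lie left of 0 and Psmd3, Psmd11, Psme3 and Psme4 lie right of it; Psma8 and Psmb11, and Psme2 in 2 panels, were not tested.

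The lesion difference was not equally large in all libraries. The labels carry bracketed numbers of unstated meaning, 74, 75 and 124 for lesion and 69, 70 and 123 for sham libraries. Between the libraries numbered 69 to 75, 40 of 44 members were negative with a median of -0.39, and 23 fell and 2 rose, where 15.8% of all genes fell (limma). Among all 14201 genes tested between these libraries, 2517 rose. Between lesion 124 and sham 123, with 1 library each and no test, the median was 0.02 and 20 of 44 members were negative, against a median of -0.01 over all genes. Psmb5 had -0.72 in the first set and -0.15 in the second, Psma6 -0.66 and -0.24, Psmd5 -0.58 and -0.33 and Psmg2 -0.82 and -0.24. Other members that were low in the first set were not negative in the second: Psmc3 had -0.59 and 0.31, Psmb3 -0.54 and 0.31, and Psmb6 -0.54 and 0.10. Of the called falls, Psmd6, Psmb7 and Psmd12 had 0.001, 0.010 and 0.038 between libraries 124 and 123. Psmd3 was positive in both, with 0.41 and 0.45, as were Psmd11 (0.37 and 0.49), Psme3 (0.41 and 0.11) and Psme4 (0.21 and 0.18). With the number set as a covariate, 15 members fell and 3 rose (limma), where 19.1% of all genes fell and 2905 of 14556 rose. When 1 library at a time was left out, the count of falls ranged from 7 (without sham replicate 1 or 2) to 22 and was 9 without lesion replicate 2. Over all genes 2162 and 2306 fell without sham replicate 1 and 2 and 2924 without lesion replicate 2, against 2947 in the main fit. Called rises numbered 2 without lesion replicate 1 or 3 or sham replicate 1 or 3, where 2398 to 2828 of all genes rose, against 3043 in the main fit. Of the 21 calls, 8 passed without each library in turn: Psma5, Psma6, Psmb1, Psmb5, Psmd3, Psmd5, Psme3 and Psmg2. The Psma2 call was lost without lesion replicate 1 or 2 or sham replicate 1 or 3, and the Psmd11 call without lesion replicate 1 or 3 or sham replicate 1 or 3. The Psme4 call was lost without any library other than lesion replicate 2. Of the other 10 called members, all falls, 10 lost their call without sham replicate 2 and 9 without sham replicate 1.

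**Figure D3:**
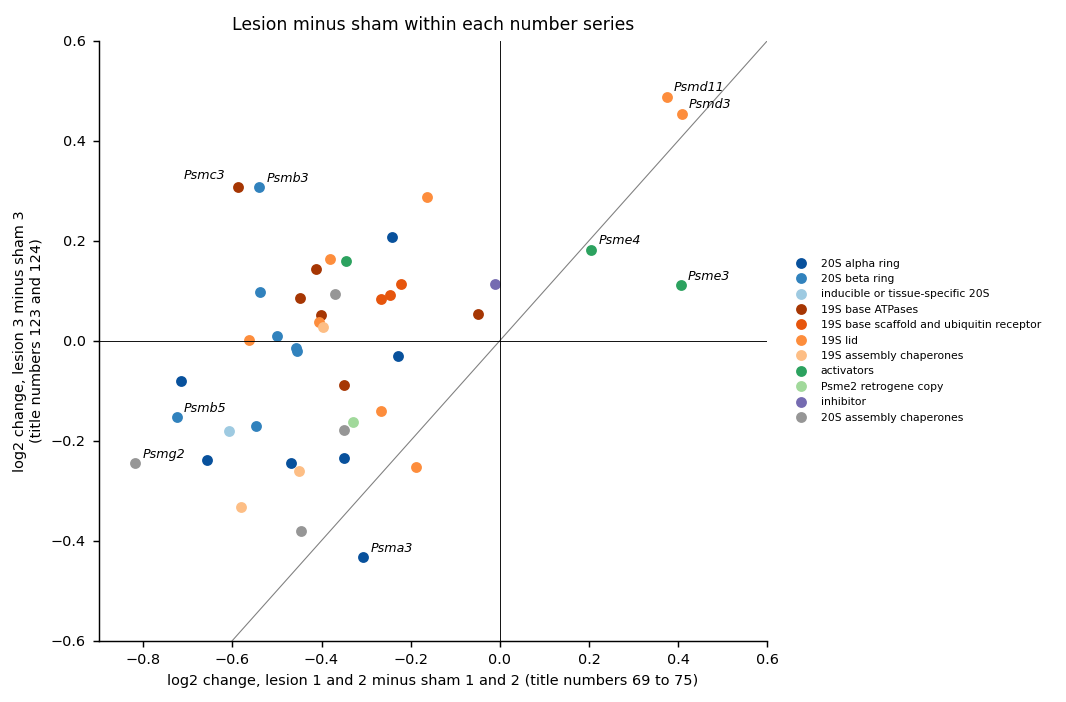
Log2 change of each tested member between lesion and sham within the libraries numbered 69 to 75 (horizontal axis) and between the single libraries numbered 124 and 123 (vertical axis); the grey line marks equal changes. Most points lie left of 0 on the horizontal axis (median -0.39) and are spread around 0 on the vertical axis (median 0.02).

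Because the 20S genes fell and part of the 19S genes did not, the summed level of the 17 genes of the 19S particle was divided by that of the 14 constitutive 20S genes in each library. This ratio was chosen after the changes were seen and is a description with no test. It was 2.22, 2.22 and 2.16 in lesion libraries and 1.84, 1.85 and 1.92 in sham libraries, with no overlap. The 20S sum was 4494 to 5584 in lesion and 5936 to 6791 in sham libraries, while the 19S sums overlapped, with 9983 to 12076 in lesion and 11417 to 12545 in sham libraries. Without Psmd3 and Psmd11 the ratio was 1.97 to 1.99 in lesion and 1.72 to 1.79 in sham libraries, again with no overlap.

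Other genes of the pathway were read from lists of known partners. Among 11 tested partners and assembly factors, 4 fell and 2 rose in lesion against sham ganglia (limma). Shfm1, a small lid subunit outside the symbol rule, fell (log2 change -0.60, limma adjusted p = 0.0278), as did Uchl5, a deubiquitinase bound to the cap (-0.59, limma adjusted p = 0.00627). The stress-induced Zfand2a (0.28) and Akirin2, known in human cells to bring proteasomes into the nucleus (0.22), rose (limma adjusted p = 0.00763 and 0.0453). Nfe2l1, the factor known to drive proteasome genes when the protease is short, had a log2 change of -0.13 ± 0.07 (limma adjusted p = 0.126). Ngly1, a glycanase known to activate it, fell (-0.50, limma adjusted p = 0.000424), and Fbxw7, a ligase subunit that marks it for degradation, fell too (-0.62, limma adjusted p = 2.3e-05). Of 15 p97 and shuttle genes 5 rose and 1 fell, and of 30 conjugating enzymes 8 rose and 7 fell.

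Markers of other cells moved with the lesion as well. Of 10 tested macrophage and immune markers 9 rose, with a summed level of 3779 to 5528 in lesion and 1809 to 2024 in sham libraries, and 8 of 10 fibroblast markers rose and 1 fell. Of 12 neuron markers 5 rose and 5 fell, with sums of 174197 to 202377 in lesion and 167039 to 176019 in sham libraries. Satellite glia markers rose in 3 of 9 cases and fell in 3, and erythroid markers fell in 2 of 9. Endothelial markers rose in 2 of 8 cases, Schwann cell markers rose in 1 of 8, and 0 of 9 dividing-cell markers were called. None of these lists had a marker at 0 in either group, and their part in the proteasome changes was not tested.

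**Figure D4:**
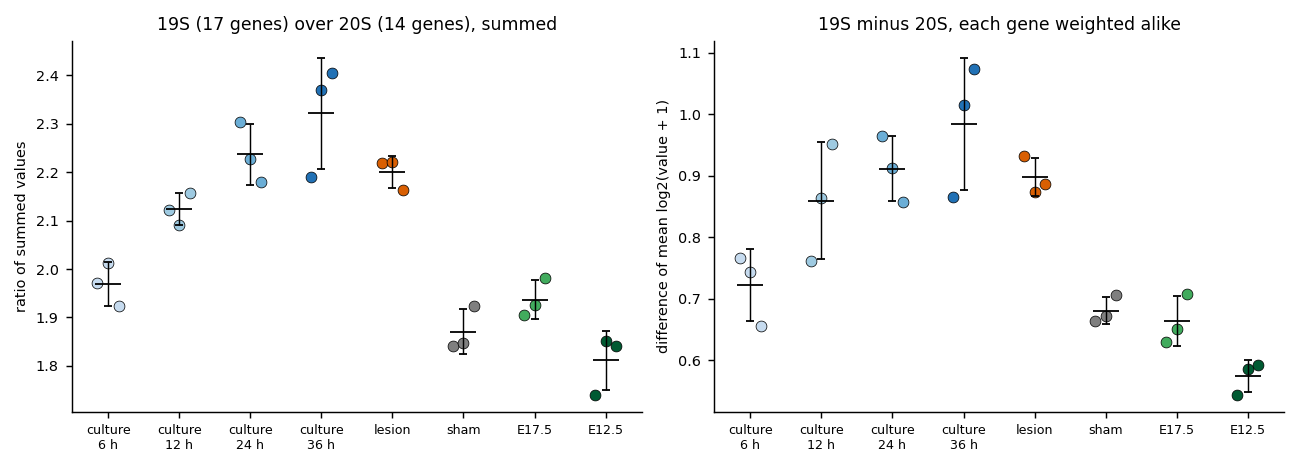
Summed 19S over summed 20S level per library (left) and the difference of mean log2 values with each gene weighted alike (right); points are libraries, bars the mean and SD of 3. Lesion libraries (2.16 to 2.22) lie above sham libraries (1.84 to 1.92), and the culture ratio is 2.32 on average at 36 h and 1.97 at 6 h.

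In culture 7 of the 17 genes of the 19S cap and the activator Psme4 rose over time, while 2 core genes fell. Between 36 h and 6 h after plating 8 of 45 tested members rose and 2 fell, where 25.3% of all 15006 tested genes rose and 25.3% fell (limma). All 8 rises were in 19S genes or Psme4: 4 of 8 lid genes, 2 of 3 non-ATPase base genes, 1 of 6 base ATPases and 1 of 4 activators. Both falls were in the core, Psma3 and Psmb1. The share called was therefore below the background in both directions, and the median log2 change of the 45 was 0.08, against 0.02 over all genes, and ranged from 0.02 to 0.19 with 1 library left out.

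Psmd3 had 590, 775 and 578 normalized reads at 6 h, 549, 1176 and 873 at 12 h, 1119, 1217 and 919 at 24 h and 1093, 1320 and 1514 at 36 h. All 36 h libraries were above all 6 h libraries, the 12 h libraries spanned both, and the log2 change between 36 h and 6 h was 1.01 ± 0.22 (limma adjusted p = 0.0014). Psmd8, a lid subunit, had 647, 664 and 670 at 6 h, 639, 807 and 697 at 12 h, 900, 864 and 820 at 24 h and 1003, 1203 and 1059 at 36 h. The 24 h and 36 h libraries all lay above the earlier ones (log2 change 0.72 ± 0.12, limma adjusted p = 0.000147). Psme4 had 955, 1105 and 1231 at 6 h, 1609, 1161 and 1005 at 12 h, 1790, 1630 and 1934 at 24 h and 2003, 1515 and 1809 at 36 h. The 24 h and 36 h libraries lay above all 6 h libraries, and 12 h replicate 1 lay among them (log2 change between 36 h and 6 h 0.69 ± 0.17, limma adjusted p = 0.00258).

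Psmd13, a further lid subunit, had 406, 355 and 339 at 6 h, 339, 445 and 400 at 12 h, 453, 443 and 465 at 24 h and 560, 532 and 561 at 36 h (log2 change 0.59 ± 0.13, limma adjusted p = 0.00155). The 36 h libraries lay above all others. Psmc4, a base ATPase, had 494, 437 and 607 at 36 h and 278, 402 and 360 at 6 h (log2 change 0.57 ± 0.18, limma adjusted p = 0.0163). Psmd2, Psmd11 and Psmd4 rose by 0.42, 0.39 and 0.36 on the log2 scale. In the other direction Psma3 had 126, 66.7 and 74.8 at 36 h and 134, 171 and 166 at 6 h (log2 change -0.86 ± 0.27, limma adjusted p = 0.0136), and Psmb1, a core subunit without a cutting site, 694, 592 and 686 at 36 h and 770, 914 and 980 at 6 h (log2 change -0.43 ± 0.15, limma adjusted p = 0.0234). Neither of these pairs of times overlapped.

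The cutting-site genes did not pass the test over this interval. Psmb5 had 966, 982 and 1054 at 36 h and 1068, 1004 and 864 at 6 h, overlapping groups with a log2 change of 0.04 ± 0.13. Psmb6 had a log2 change of 0.22 ± 0.17, Psmb7 of -0.27 ± 0.19 and Psmb10 of 0.44 ± 0.22, the last with all 36 h values above all 6 h values (limma adjusted p = 0.107). Psme1, Psme2, Psme3, Psmf1 and Psmd14 had log2 changes of -0.43 ± 0.50, 0.64 ± 0.64, -0.18 ± 0.13, -0.08 ± 0.11 and -0.23 ± 0.16.

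An F test over the 4 times called 6 members, Psmc4, Psmd3, Psmd8, Psmd11, Psmd13 and Psme4, where it called 45.7% of all genes (limma). Of the single steps, 24 h against 12 h had 2 rises, Psmd11 (0.51 ± 0.15, limma adjusted p = 0.0371) and Psme4 (0.53 ± 0.17, limma adjusted p = 0.0498), where 4.82% of all genes rose and 6.74% fell. The steps 12 h against 6 h and 36 h against 24 h had 0 called members by limma. At an unadjusted p under 0.05, 1 member was lower at 12 h than at 6 h (Psmd5) and 2 were higher at 36 h than at 24 h (Psmd8 and Psmd13). On recovered reads edgeR called 0 in both steps, and DESeq2 called 1 lower in the first and 0 in the second. All genes were called in 5.86% (higher) and 4.72% (lower) of cases in the first step and in 1.11% and 1.55% in the second.

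Psmd3, Psmd8, Psmd13 and Psme4 kept their 36 h call without each culture library in turn. Psma3 lost it without 36 h replicate 2 or 3, Psmb1 without 6 h replicate 2 or 3 or 36 h replicate 2, and Psmc4 without 6 h replicate 1 or 36 h replicate 3. Psmd4 lost it without 6 h replicate 1 or 3 or 36 h replicate 3, Psmd2 without these or 36 h replicate 2, and Psmd11 without 6 h replicate 1 or 2, 24 h replicate 1 or 36 h replicate 1 or 3. The count of rises was 4 without 6 h replicate 1 and 5 without 36 h replicate 3, and the count of falls was 0 without 36 h replicate 2 and 1 without 36 h replicate 3 or 6 h replicate 2 or 3. Over all genes those rises numbered 3367 and 3287, against 3794 in the main fit. Falls over all genes without these 4 libraries numbered 3281 to 3524, against 3795. The F test called 11 members without 12 h replicate 1. The Psmd11 rise at 24 h was lost without 12 h replicate 2 or 3, 24 h replicate 1 or 3 or 36 h replicate 3, and the Psme4 rise without 10 of the 12 libraries, all but 12 h replicate 1 and 36 h replicate 2.

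The ratio of summed 19S to summed 20S levels was 1.97, 2.01 and 1.92 at 6 h, 2.12, 2.09 and 2.16 at 12 h, 2.30, 2.23 and 2.18 at 24 h and 2.19, 2.37 and 2.40 at 36 h. On these sums the 6 h libraries lay below all later ones, and the later times overlapped in part. With genes weighted alike, 12 h replicate 1 (a log2 difference of 0.762) lay below 6 h replicate 1 (0.767), and per kilobase 12 h replicate 2 (a ratio of 1.19) lay below 6 h replicates 2 and 3 (1.23 each). The 20S sum averaged 6586 ± 343 at 36 h and 6680 ± 682 at 6 h, and the 19S sum 15280 ± 896 at 36 h and 13140 ± 1180 at 6 h (SD, n = 3 each). Psmd3, Psmd11 and Psme4 were called higher both after lesion and late in culture. Only Psmd3 kept both calls without each library in turn. How many of all genes were called higher in both was not counted, and this overlap was not tested.

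Of 11 partners, 4 fell and 1 rose between 36 h and 6 h (limma). Usp14, the deubiquitinase that trims chains on the cap, fell (log2 change -0.89, limma adjusted p = 0.000276), as did Zfand5 (-1.02, limma adjusted p = 3.18e-05), a zinc finger activator of the protease. The cap receptor Adrm1 rose (0.63, limma adjusted p = 0.00537). Of 31 conjugating enzymes 17 fell and 0 rose, and Nfe2l1 had a log2 change of -0.22 ± 0.14 (limma adjusted p = 0.188). Over the same interval 7 of 12 neuron markers fell and 1 rose, with sums of 62097 to 73324 at 36 h and 104906 to 110669 at 6 h, while 8 of 8 endothelial markers and 6 of 8 dividing-cell markers rose. The endothelial sum was 4750 to 6366 at 36 h and 2648 to 3415 at 6 h. Satellite glia markers rose in 4 of 9 cases and fell in 3, and Schwann cell markers rose in 1 of 8 and fell in 3. Immune markers rose in 4 of 8 cases, fibroblast markers rose in 5 of 10 and erythroid markers fell in 5 of 7. The part of these shifts in the proteasome changes was not tested.

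**Figure D5:**
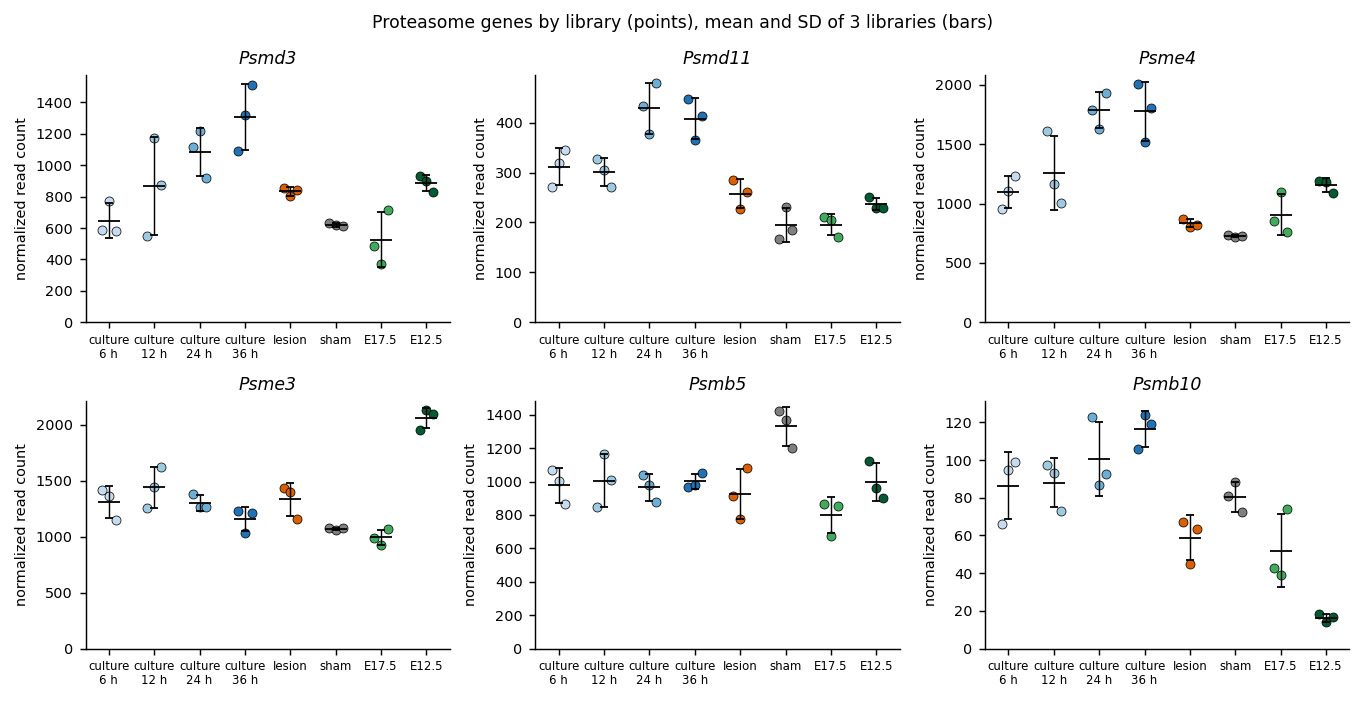
Normalized read counts of Psmd3, Psmd11, Psme4, Psme3, Psmb5 and Psmb10 in the 24 libraries; points are libraries, bars the mean and SD of 3. Psmd3 climbs over the culture times and is higher in lesion than in sham libraries, Psmb5 is lower in lesion than in sham libraries, and Psme3 is lower at E17.5 than at E12.5.

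Between the embryonic stages Psmb10 and 3 base genes were higher at E17.5, while Psme3, 2 lid genes and 2 core chaperones were among the members that were lower. Of 44 tested members 4 rose and 7 fell in E17.5 against E12.5 ganglia, where 31.1% of all 14550 tested genes rose and 31.9% fell (limma). The share of members called was thus below the background, and their median log2 change was -0.08, against -0.05 over all genes. No beta ring gene was called, 1 alpha gene fell, 2 of 6 ATPases and 1 further base gene rose, 2 lid genes fell and 2 of 4 chaperones of the core fell. Each stage has its own bracketed label numbers, and those of E17.5 run on into those of the cultures. A difference tied to these numbers therefore cannot be separated from stage. In the depth unit given above, E12.5 libraries had 13.6 to 18.3, and E17.5 replicates 1, 2 and 3 had 24.3, 3.10 and 4.61.

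Psmb10, the inducible subunit used when cells present antigens, had 42.9, 38.8 and 74.0 normalized reads at E17.5 and 18.1, 14.1 and 16.6 at E12.5. All E17.5 values were higher, and the log2 change was 1.56 ± 0.32 or 2.95-fold (limma adjusted p = 0.00278). Psmb10 had only 11 reads in its poorest library of the series, so its values are less precise. Psmd1, the largest base scaffold, had 1005, 938 and 814 at E17.5 and 617, 717 and 611 at E12.5 (log2 change 0.50 ± 0.13, limma adjusted p = 0.01). The ATPase Psmc2 had 624, 667 and 451 at E17.5 and 408, 399 and 372 at E12.5 (log2 change 0.54 ± 0.17, limma adjusted p = 0.0198). Both rose in all libraries, whereas the ATPase Psmc3, with 583, 395 and 726 at E17.5 and 398, 356 and 332 at E12.5, had overlapping groups (log2 change 0.61 ± 0.22, limma adjusted p = 0.0354).

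Psme3 had 991, 924 and 1064 at E17.5 and 1956, 2128 and 2096 at E12.5, the clearest separation of the 44 in this comparison by adjusted p (log2 change -1.05 ± 0.11, limma adjusted p = 6.24e-05). Every E12.5 library was above every E17.5 library. Psmd3 had 488, 374 and 717 at E17.5 and 930, 898 and 829 at E12.5 (log2 change -0.80 ± 0.22, limma adjusted p = 0.0113). Psmd8 had 771, 600 and 761 at E17.5 and 1123, 1076 and 1000 at E12.5 (log2 change -0.59 ± 0.14, limma adjusted p = 0.00494). Both lid genes were lower in all E17.5 libraries. The chaperone Psmg4 had 46.3, 31.7 and 62.4 at E17.5 and 87.3, 95.7 and 82.2 at E12.5 (log2 change -0.95 ± 0.27, limma adjusted p = 0.0142), and its relative Psmg1 had 50.3, 49.4 and 60.1 at E17.5 and 80.7, 70.7 and 87.2 at E12.5 (log2 change -0.57 ± 0.21, limma adjusted p = 0.0395). Both chaperones rest on few reads in the shallow E17.5 libraries. Psma2 and Psme2b fell by 0.41 and 0.34 on the log2 scale.

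Psmb5, Psmb6 and Psmb7 had log2 changes of -0.32 ± 0.15, -0.17 ± 0.13 and -0.07 ± 0.15 and none was called. Psme1 had 108, 102 and 69.4 at E17.5 and 57.1, 66.8 and 64.9 at E12.5, all higher but not called (limma adjusted p = 0.0695), and Psme4 had a log2 change of -0.37 ± 0.15 (limma adjusted p = 0.0602). Psmf1, Psmd4 and Psmd14 had 0.14 ± 0.13, -0.06 ± 0.13 and 0.15 ± 0.15. Psmb10, Psmd1, Psmd3, Psmd8 and Psme3 kept their calls without each library in turn. Psmc2 lost its call without E17.5 replicate 1 or 2 or E12.5 replicate 2 or 3, Psmc3 without E17.5 replicate 1 or 3 or E12.5 replicate 2 or 3, and Psmg4 without E12.5 replicate 2. Psmg1 lost it without any library other than E17.5 replicate 3, Psme2b without any other than E17.5 replicate 2, and Psma2 without E17.5 replicate 1 or 3 or E12.5 replicate 1 or 2. Rises numbered 2 without E17.5 replicate 1 or E12.5 replicate 2 or 3, where 3648, 4073 and 4437 of all genes rose, against 4524 in the main fit. Falls numbered 4 without E17.5 replicate 1 or E12.5 replicate 1, 3 without E12.5 replicate 2 and 11 without E17.5 replicate 2. Those over all genes were 4099 without E17.5 replicate 1, 3664 without E12.5 replicate 1 or 2 and 4667 without E17.5 replicate 2, against 4636.

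The ratio of summed 19S to summed 20S levels was 1.90, 1.92 and 1.98 at E17.5 and 1.74, 1.85 and 1.84 at E12.5, with no overlap. Among regulators of proteasome genes 5 of 8 rose and 1 fell between the stages (limma). Nfe2l1 had a log2 change of 0.84 ± 0.12 (limma adjusted p = 0.000305) and Ngly1 one of 1.28 (limma adjusted p = 0.000133), both rising, and Usp14 among the partners rose by 0.98 on the log2 scale (limma adjusted p = 0.000167). Of 10 dividing-cell markers 10 fell, with sums of 3751 to 4984 at E17.5 and 24713 to 26870 at E12.5. Of 12 neuron markers 9 rose and 1 fell, with sums of 102699 to 111996 at E17.5 and 37311 to 61533 at E12.5. Of 8 Schwann cell markers 7 rose. Of 9 tested immune markers 4 rose and 0 fell, with sums of 1189 to 1469 at E17.5 and 799 to 989 at E12.5. Of 10 fibroblast markers 6 rose and 1 fell, with sums of 33019 to 41773 at E17.5 and 8958 to 19609 at E12.5. Erythroid markers rose in 5 of 9 cases and fell in 2, with sums of 22650 to 43009 at E17.5 and 7286 to 10655 at E12.5. Satellite glia markers rose in 5 of 9 cases and fell in 1, and endothelial markers rose in 1 of 8 and fell in 2. The part of these shifts in the proteasome changes, Psmb10 included, was not tested.

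A last pair of comparisons joins different preparations, so that dissociation, age, handling and label numbers cannot be told apart. They use the sham libraries that also serve as the control for the lesion, and were fitted over all 24 libraries. In culture at 6 h against sham ganglia 11 of 45 members rose and 4 fell, where 23.3% of all 15935 tested genes rose and 24.5% fell (limma). Psmd11 had 271, 320 and 346 at 6 h and 166, 232 and 185 in sham libraries (log2 change 0.69 ± 0.15, limma adjusted p = 0.000491), and Psme4 had 955, 1105 and 1231 at 6 h and 736, 719 and 726 in sham libraries (log2 change 0.58 ± 0.15, limma adjusted p = 0.0024). Both were higher in all cultures. The ATPase Psmc6, the alpha subunit Psma1 and the scaffold Psmd1 rose by 0.67, 0.62 and 0.58 on the log2 scale. Psme2 was called as well (1.96, limma adjusted p = 0.0209), but rested on 6, 21 and 7 reads at 6 h and 1, 8 and 2 reads in sham libraries, and its groups overlapped. Psmd14 and Psme3 were also called higher, with log2 changes of 0.38 to 0.48 and 0.22 to 0.38 when 1 library was left out. Psmd14 lost its call without 6 h replicate 3, and Psme3 without 6 h replicate 1 or 2 or any sham replicate. Psmb6, Psmb7, Psmb10, Psmd4, Psme1 and Psmf1 were not called. Falls were in Psmb5 (-0.45 ± 0.14, limma adjusted p = 0.0105), Psmd5 (-0.50 ± 0.12, limma adjusted p = 0.00118), Psmg3 (-0.54 ± 0.20, limma adjusted p = 0.0331) and Psmd9 (-0.40 ± 0.14, limma adjusted p = 0.0243). Only Psmd1, Psmd5, Psmd11 and Psme4 of the 15 kept their calls without each library in turn: Psma1 and Psmb5 lost theirs without 6 h replicate 3, Psmc6 without 6 h replicate 3 or sham replicate 2, Psme2 without 6 h replicate 3 or sham replicate 1 or 3, Psmg3 without 6 h replicate 3 or sham replicate 1 or 2, and Psmd9 without 6 h replicate 2 or sham replicate 1 or 2. Rises numbered 5 without 6 h replicate 3 and 6 without sham replicate 3, and falls numbered 2 without 6 h replicate 3 or sham replicate 1 or 2. Over all genes those rises numbered 3242 and 3315, against 3709, and those falls 3216, 3196 and 3234, against 3909. Of 8 Schwann cell markers 7 fell and 1 rose. Of 10 immune markers 6 fell and 1 rose, with sums of 307 to 395 at 6 h and 1809 to 2024 in sham libraries. Of 12 neuron markers 6 fell and 1 rose, with sums of 104906 to 110669 at 6 h and 167039 to 176019 in sham libraries. Satellite glia markers fell in 6 of 9 cases and rose in 1, and fibroblast markers fell in 7 of 10. Endothelial markers rose in 3 of 8 cases and fell in 1. Erythroid markers fell in 8 of 9 cases, and dividing-cell markers fell in 3 of 10 and rose in 1. The part of all these markers in the proteasome changes was not tested.

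In adult sham against E17.5 ganglia 12 of 45 members rose and 3 fell, where 28.1% of all tested genes rose and 28.5% fell (limma). The inhibitor Psmf1 had 850, 958 and 843 in sham and 532, 494 and 548 in E17.5 libraries, with no overlap (log2 change 0.75 ± 0.10, limma adjusted p = 5.25e-07). Psmb5 had 1420, 1371 and 1201 in sham and 868, 674 and 853 in E17.5 libraries (log2 change 0.74 ± 0.14, limma adjusted p = 7.46e-05), and Psma5 had 249, 256 and 241 in sham and 145, 155 and 132 in E17.5 libraries (log2 change 0.79 ± 0.20, limma adjusted p = 0.00179). All sham values of both were higher. Psmb10 and Psmc5 rose by 0.68 and 0.57 on the log2 scale. The activator subunit Psme1 had 33.5, 39.5 and 31.0 in sham and 108, 102 and 69.4 in E17.5 libraries (log2 change -1.39 ± 0.42, limma adjusted p = 0.0069), the chaperone Psmg1 fell by 1.04 and the alpha subunit Psma7 by 0.73 on the log2 scale. Of these, Psmb10 lost its call without sham replicate 2 or E17.5 replicate 1 or 2, and Psma7 without sham replicate 1 or 3 or E17.5 replicate 1, and falls numbered 5 without E17.5 replicate 3 and 6 without culture 12 h replicate 1. Over all genes those falls numbered 4368 and 4780, against 4548 in the main fit. Psmd14 was also called higher, with log2 changes of 0.31 to 0.53 when 1 library was left out, and lost its call without E17.5 replicate 3. Psmb6, Psmb7, Psmd4, Psme2, Psme3 and Psme4 were not called. All 10 dividing-cell markers fell and all 8 Schwann cell markers rose between these groups. Neuron markers rose in 3 of 12 cases and fell in 3, satellite glia markers in 5 and 1 of 9, and immune markers in 1 and 1 of 10. Fibroblast markers rose in 2 of 10 cases and fell in 6, erythroid markers in 1 and 7 of 9, and endothelial markers fell in 5 of 8. The part of all these markers in these changes was not tested.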

How the data were processed

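Gene expression of mouse lumbar dorsal root ganglia was measured by RNA sequencing in 24 libraries, grouped by the sample labels. TopHat and the build mm10 are named, per the submitters' processing notes. For the aligner's version, the annotation and the counter, nothing is given in the sources used. The deposited table holds a signal, which the values show to be read counts divided by 1 factor per library: all of 339603 values of up to 1000 reads (100%) were whole reads within 0.1 after multiplying back. All columns were mapped to samples, with 0 left over. Replicates of a group correlated at 0.972 to 0.993 on the log scale and differed by more than counting noise. Each was counted as its own sample, although such differences do not show that libraries came from separate animals.

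The test was limma 3.58.1 (R 4.3.3). It ran on log2(value + 1), a scale that understates changes of low genes, with eBayes set to trend and robust and no further scaling. Genes entered a fit with values of 10 or more in 3 or more of its libraries. Benjamini-Hochberg adjustment covered every gene of the fit (threshold 0.05). Lesion and sham, the 4 culture times, and the embryonic stages were fitted separately, and comparisons across preparations in 1 fit over all 24 libraries. The plan named limma for normalized values, so it was kept; as whole reads were recovered, edgeR 4.0.16 and DESeq2 1.42.0 on those reads were run as alternatives, together with other pseudocounts, filters, scalings, fits and left-out libraries, and splits by the numbers in the labels. The limma fit was also run on simulated counts, with the same spread for every gene and no difference between library series. That run therefore does not measure the error rate in these libraries.

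Per comparison the 5 largest called rises and falls were named, plus Psmb5, Psmb6, Psmb7, Psmb10, Psmd4, Psmd14, Psme1, Psme2, Psme3, Psme4 and Psmf1 where tested. For the F test and the steps between neighbouring culture times only members under a p threshold were named. Psma5 was added for its promoter, and further names were chosen after their values were seen. Members and lists were chosen with earlier results of these data known. Gene positions and exon lengths are from GENCODE M21 and promoters from RefSeq. In 49 genes E12.5 values equalled a trimmed mean over all libraries within 1 read in some or all libraries of that group, and 0 of these are members. The ratio of 19S to 20S sums was chosen after the data were seen.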

Additional observations from a re-analysis of the deposited data

How the results depend on the processing

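Among called members, the direction reversed in 3 falls after lesion between libraries 124 and 123, with 1 library each and no test: Psmb7 had 0.01, Psmd12 0.038 and Psmd6 0.001. No other called member reversed under the settings run, and counts not named here or beside their result stayed within 1.5 times. Of all genes, DESeq2 called 2568 lower after lesion, against 2947 in the main limma fit. The 4 rises and 17 falls of members after lesion became 1 and 8 without trend or robust, 0 and 5 in 1 fit over all 24 libraries, 2 rises within the libraries numbered 69 to 75, and 11 falls with DESeq2. The median of -0.26 became 0.018 between libraries 124 and 123; the cause was not tested. Rises at E17.5 numbered 7 with DESeq2, which called 4668 of all genes higher. At 24 h against 12 h the 2 rises became 1 with a pseudocount of 0.5 or DESeq2 median-ratio scaling and 0 with no filter, without trend or robust, or with only the 2 groups compared. At 12 h against 6 h the 0 falls became 1 in 1 fit over all 24 libraries and with DESeq2. Falls in sham against E17.5 numbered 5 with only these groups in the fit.

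With 1 library left out, rises and falls ranged from 2 to 4 and 7 to 22 after lesion, 2 to 6 and 3 to 11 at E17.5, 0 to 1 and 0 to 3 at 12 h against 6 h, 4 to 10 and 0 to 2 at 36 h against 6 h, and 5 to 12 and 2 to 5 at 6 h against sham. In the same order, rises over all genes ranged from 2398 to 2828, 3648 to 4437, 477 to 1480, 3225 to 4228 and 3207 to 3907. Their falls ranged from 2162 to 2924, 3664 to 4667, 371 to 1138, 3281 to 4195 and 3196 to 4221. Rises at 24 h against 12 h ranged from 0 to 3, falls in sham against E17.5 from 2 to 6, and calls of the F test from 5 to 11. Over all genes the rises at 24 h against 12 h ranged from 286 to 1072 and the falls in sham against E17.5 from 4049 to 4780. The F test was not counted over all genes with a library left out. The member median ranged from -0.14 to 0.10 at 12 h against 6 h and from 0.034 to 0.25 at 24 h against 12 h, from 0.02 to 0.19 at 36 h against 6 h, from 0.01 to 0.17 at 6 h against sham, from -0.33 to -0.19 after lesion, from -0.12 to -0.10 at E17.5, from 0.10 to 0.25 in sham against E17.5 and from -0.07 to 0.03 at 36 h against 24 h. No paired analysis was possible because the labels give each library its own number and the groups share none. Depth limits Psma8, Psmb11, Psme2, Psmg1, Psmg4, Psme1 and Psmb10 most.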
